A study of Homo sapiens with 20 samples.

Results

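The regions described here are the RUNX1 peaks of chromosomes 8 and 15 in THP-1 cells, a human line derived from an acute monocytic leukemia. They were chosen by chromosome: 1366 peaks on chromosome 8 and 877 on chromosome 15, together 2243 of 26642 peaks (8.42%) in the merged peak set. Chromatin immunoprecipitation with sequencing (ChIP-seq) counted RUNX1-bound fragments in control cells, which carried a scramble shRNA, and in knockdown cells, which carried an shRNA against PU.1. In both genotypes doxycycline in the medium switched on the shRNA cassette. The 6 control and 6 knockdown libraries came from 2 experimental rounds: 3 control and 2 knockdown libraries formed batch 1, and batch 2 comprised 3 and 4. Per the study's methods, the libraries came from separate immunoprecipitations and library preparations of cell line replicates. Control and knockdown cells are separately derived shRNA lines, so a difference between the lines and an effect of the knockdown cannot be told apart. Of the series' 20 samples, the other 8 were made with an unspecific IgG antibody and were not analysed here. Both chromosomes were picked because their peaks shifted downward in these data, so the values along them are a description and carry no test.

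RUNX1 is a DNA-binding factor of blood cell development that binds the RUNX motif together with its partner CBFB. PU.1, the product of SPI1, is the ETS factor that drives monocyte and macrophage development, and both factors often occupy the same myeloid enhancers. A peak's read count depends on how often the factor is bound, on the accessibility of the site and on how many copies of the site a cell holds. Binding and accessibility can differ from site to site or over wider regions, and the number of copies is shared by a whole chromosome or segment. All 8 of the myeloid marker genes examined (CD14, CSF1R, ITGAM, LYZ, MPO, CEBPA, CEBPB and CD33) had between 2 and 7 RUNX1 peaks within 50 kb.

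A pair of chromosome 15 promoters shows what single sites look like that moved away from their surroundings in opposite directions. RefSeq promoters (assembly GRCh38.p14, 250 bases before to 50 after a gene's start) were matched to peaks that contained them whole. On chromosome 15, 251 of them lay inside a RUNX1 peak. The promoters printed are those of SMAD3, the signal transducer of TGF-beta receptors (chr15:67098429-67098728, plus strand, one of several annotated starts), and of IL16, a secreted chemoattractant for CD4+ cells (chr15:81296720-81297019, plus strand). They were picked after their values were seen, for having peaks that changed beyond their surroundings in each direction and a mean normalised count of 30 or more. Capitals mark the RUNX core motifs TGTGGT and TGCGGT and the PU.1 motif GAGGAAGT, searched on both strands.
SMAD3: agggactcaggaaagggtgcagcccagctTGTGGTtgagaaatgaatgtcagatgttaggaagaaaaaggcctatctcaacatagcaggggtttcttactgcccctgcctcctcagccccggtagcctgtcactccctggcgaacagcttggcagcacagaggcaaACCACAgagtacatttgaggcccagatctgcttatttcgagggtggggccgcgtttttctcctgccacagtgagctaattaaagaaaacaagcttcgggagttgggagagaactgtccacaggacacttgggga
IL16: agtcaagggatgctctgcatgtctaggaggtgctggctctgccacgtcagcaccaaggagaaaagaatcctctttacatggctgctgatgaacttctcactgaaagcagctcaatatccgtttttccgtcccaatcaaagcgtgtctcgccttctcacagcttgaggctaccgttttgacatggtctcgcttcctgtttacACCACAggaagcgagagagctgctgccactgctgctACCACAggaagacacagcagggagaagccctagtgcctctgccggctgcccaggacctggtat

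The SMAD3 and IL16 promoters each held 2 matches to TGTGGT or its reverse complement. At the SMAD3 promoter the normalised count (reads divided by the library's size factor) was 37.9, 44.8 and 58.5 in control libraries and 76.4, 90.1 and 105 in knockdown libraries (lowest, median and highest of 6), and the groups did not overlap. At the IL16 promoter it was 38.7, 45.5 and 60.5 in control and 17.8, 22.1 and 31.1 in knockdown libraries, again without overlap. One of the RUNX core motifs was present in 19.6% of 34943 RefSeq promoters, in 26.1% of 7562 promoters inside any RUNX1 peak and in 24.3% of the 251 on chromosome 15. Among the latter it was present in 14 of 50 promoters whose peak fell below its surroundings (28.0%), in 2 of 4 whose peak rose above them and in 45 of 197 in other peaks (22.8%). The PU.1 motif was present in 7 of the 251 (2.79%) and in 2.59% of all RefSeq promoters. Promoters of chromosome 8 were not used here. Several of these promoters are alternative starts of 1 gene inside the same peak, so they are not separate observations.

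Chromosomes 8 and 15 took a smaller share of the reads in knockdown libraries, with no overlap between genotypes. They were chosen by this contrast, and the shares of other chromosomes were not computed, so how common such a gap is among chromosomes is not known here. Control libraries held 630247 to 1199004 in-peak reads and knockdown libraries 938745 to 1719840, and the share of those reads lying on 1 chromosome does not depend on that total. Chromosome 8 held 5.97% to 6.19% of in-peak reads in control libraries (mean 6.07% ± 0.0776, SD, n = 6) and 5.44% to 5.63% in knockdown libraries (5.51% ± 0.0653, SD, n = 6), a share 9.26% lower. Chromosome 15 held 3.38% to 3.44% in control libraries (3.40% ± 0.0243, SD, n = 6) and 3.08% to 3.11% in knockdown libraries (3.09% ± 0.0115, SD, n = 6), a share 9.19% lower. The same order held in each batch, with means of 6.01% and 5.49% in batch 1 and 6.14% and 5.53% in batch 2 for chromosome 8. For chromosome 15 they were 3.41% and 3.08% in batch 1 and 3.39% and 3.09% in batch 2.

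**Figure D1:**
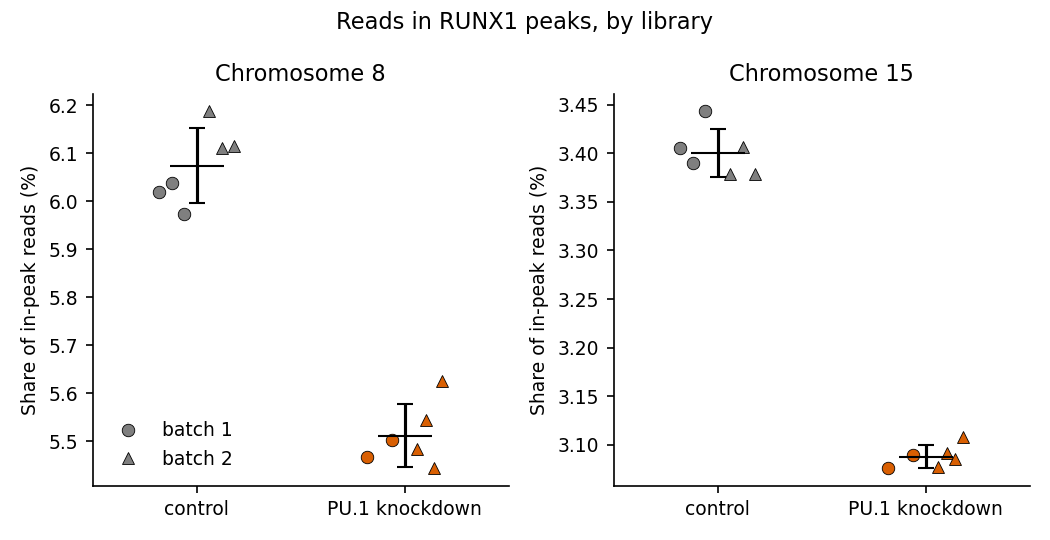
Share of all in-peak reads that lay on chromosome 8 (left) and chromosome 15 (right), in percent, for each library; circles are batch 1, triangles batch 2, and the bar with whiskers is the mean ± SD of 6 libraries. The vertical axes do not start at 0. On both chromosomes every knockdown library lay below every control library.

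The batches, unlike the genotypes, were not used to choose these chromosomes. Within genotype, the chromosome 8 share was 0.0835 percentage points higher in batch 2 than in batch 1 (two-sided exact permutation test over 300 arrangements, p = 0.0433, adjusted over both chromosomes p = 0.0867, smallest possible p 0.003333). That is small beside the gap between genotypes, and its size was 0.127 points in control and 0.0401 points in knockdown libraries. The chromosome 15 share differed by -0.0085 points (p = 0.513, exact permutation test). The knockdown effect on single peaks did not pass an adjusted test of a difference between batches (DESeq2 interaction of genotype and batch) for any peak of either chromosome or of the set. At an unadjusted p under 0.05, 34 peaks of chromosome 8 (2.49%) and 20 of chromosome 15 (2.28%) differed, against 2.51% of all peaks.

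Ordered by the median log2 fold change (knockdown over control) of all their peaks, chromosomes 15 (-0.18) and 8 (-0.15) were the lowest after chromosome 11 (-0.28); chromosomes 18 and 20 came next (-0.11 and -0.10), and all peaks outside chromosomes 8 and 15 had a median of -0.01. Within batches, the chromosome 15 median was -0.19 in batch 1 and -0.17 in batch 2, and the chromosome 8 median was -0.14 in each. The differences from the other chromosomes were thus -0.14 for chromosome 8 and -0.17 for chromosome 15. Chromosome copy number was not measured in these libraries, and fewer copies of a chromosome cannot be told apart here from less RUNX1 bound per copy.

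**Figure D2:**
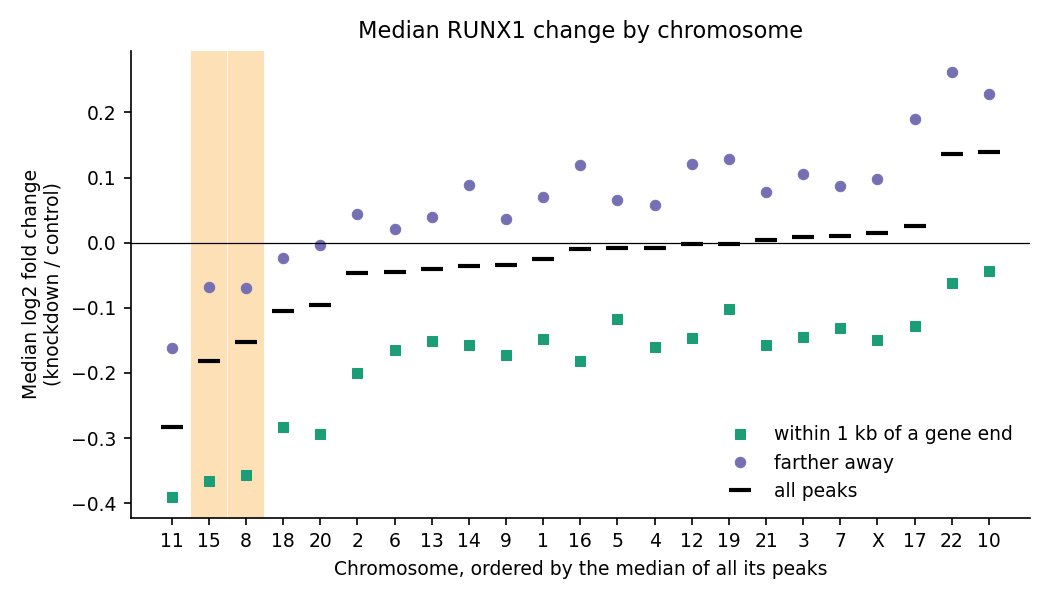
Median log2 fold change per chromosome (vertical axis) for all peaks (dashes), peaks within 1 kb of a gene end (squares) and peaks farther away (circles), with chromosomes ordered by the median of all peaks; chromosome Y, with under 20 gene-end peaks, is left out. Chromosomes 15 and 8 (shaded) follow chromosome 11 at the left, with gene-end medians of -0.37 and -0.36.

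The downward shift was present at gene ends and, by a somewhat smaller amount, away from them. Peaks at most 1 kb from where a protein-coding gene begins or stops (called gene-end peaks) made up 17.2% of chromosome 8 peaks and 22.0% of chromosome 15 peaks, against 24.9% elsewhere. They had a median log2 fold change of -0.36 on chromosome 8 (n = 235; -0.32 in batch 1 and -0.38 in batch 2) and -0.37 on chromosome 15 (n = 193; -0.33 and -0.37), against -0.15 on the other chromosomes. Peaks farther from gene ends had medians of -0.07 on both chromosomes and 0.08 elsewhere. The differences from the other chromosomes were therefore -0.20 and -0.21 at gene ends and -0.15 and -0.15 away from them. Of the gene-end peaks, 84.3% on chromosome 8 and 90.7% on chromosome 15 were below 0, against 71.3% elsewhere.

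The displacement was not limited to the medians. At gene ends, the 10th, 25th, 75th and 90th percentiles of chromosome 8 lay 0.15, 0.17, 0.20 and 0.19 below those of the other chromosomes on the log2 scale. For chromosome 15 the displacement at these percentiles was 0.16, 0.20, 0.25 and 0.31. Away from gene ends, the 10th percentile of chromosome 8 lay 0.35 lower and the 90th percentile 0.19 lower, and for chromosome 15 the values were 0.12 and 0.08. The shift did not belong to peaks of 1 strength: with all peaks in 4 groups of rising mean count, chromosome 8 differed from the other chromosomes by -0.12, -0.18, -0.12 and -0.16. Chromosome 15 differed by -0.16, -0.15, -0.21 and -0.13.

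**Figure D3:**
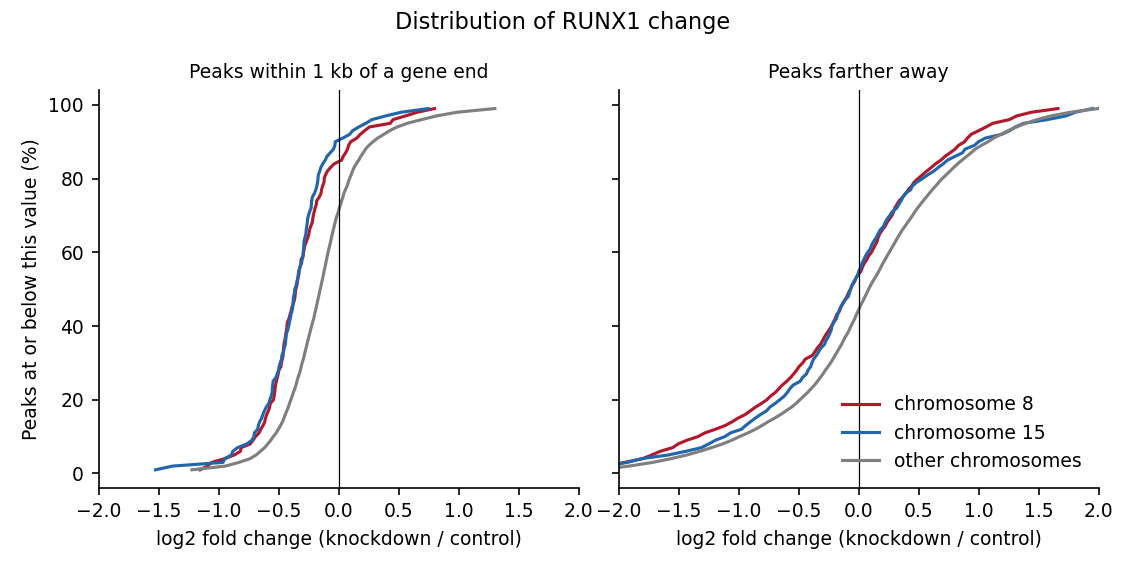
Cumulative share of peaks (vertical axis, percent) at or below each log2 fold change (horizontal axis) for chromosome 8, chromosome 15 and the other chromosomes, for gene-end peaks (left) and peaks farther away (right). At gene ends the curves of chromosomes 8 and 15 run beside each other to the left of the other chromosomes, with medians of -0.36, -0.37 and -0.15.

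Along both chromosomes, the shift was not limited to 1 segment. Of the 10 Mb windows with at least 20 peaks, all 15 on chromosome 8 and all 9 on chromosome 15 had a median below 0, as did 158 of 272 windows elsewhere (58.1%). The median was below 0 in both batches in 14 of the 15 and in 9 of the 9 windows, and in 42.3% of the windows elsewhere. On chromosome 8 the lowest window was 50 to 60 Mb (-0.38, 64 peaks; -0.28 in batch 1 and -0.45 in batch 2), which holds TOX at its distal end. The highest was 100 to 110 Mb (-0.07, 125 peaks), with 0.04 in batch 1 and -0.07 in batch 2. On chromosome 15 the windows ran from 20 to 30 Mb, the lowest (-0.25, 32 peaks; -0.31 and -0.18), to 60 to 70 Mb, the highest (-0.06, 148 peaks; -0.10 and -0.13).

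Gene-end peaks were also taken alone, window by window. All 7 chromosome 15 windows with at least 10 gene-end peaks had gene-end medians between -0.43 and -0.35 (SD between windows 0.0281, against 0.0701 over all peaks of its 9 windows). All 12 such windows of chromosome 8 lay between -0.54 and -0.21 (SD 0.0947, against 0.0886 over all peaks of its 15 windows). A gene-end median below -0.2 was thus found in every one of these windows, and in 65 of 213 windows of the other chromosomes (30.5%). That level lies just above the highest of these medians, so finding all of them below it is no test. Of windows with fewer gene-end peaks, 130 to 140 Mb on chromosome 8 had -0.10 (5 peaks). On chromosome 15, 100 to 110 Mb had -0.19 (7 peaks). Taken whole, chromosomes 11, 20 and 18 had gene-end medians of -0.39, -0.29 and -0.28. The windows with the highest medians over all peaks, 100 to 110 Mb on chromosome 8 and 60 to 70 Mb on chromosome 15, still had gene-end medians of -0.44 and -0.35. Their peaks away from gene ends had medians of 0.04 and 0.06.

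**Figure D4:**
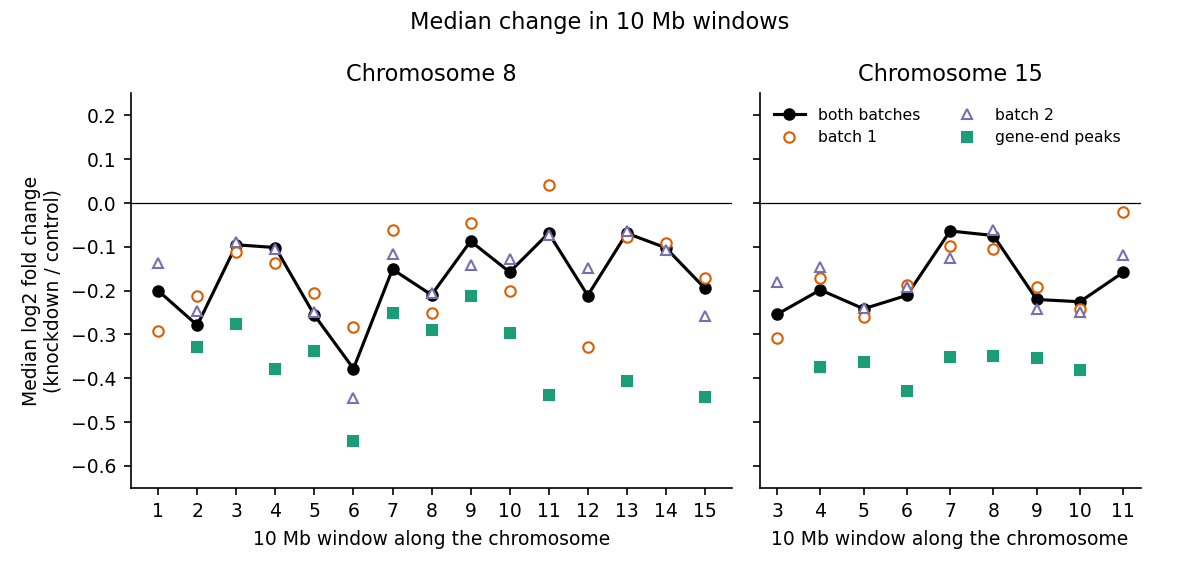
Median log2 fold change in consecutive 10 Mb windows, numbered from the start of chromosome 8 (left) and chromosome 15 (right; its first windows hold no peaks), for all peaks in both batches (black line), in batch 1 (open circles) and batch 2 (open triangles), and for gene-end peaks where a window has at least 10 (squares). The black points are below 0 in all windows, and the chromosome 15 squares lie between -0.43 and -0.35.

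Counted peak by peak, losses outnumbered gains on both chromosomes, as they did on chromosomes 11, 18 and 20. Gained and lost peaks were those whose DESeq2 p, adjusted by the Benjamini-Hochberg method, was under 0.05 and whose fold change exceeded 1.1. On chromosome 8, 453 peaks were lost (33.2%) and 239 gained (17.5%), and on chromosome 15, 254 were lost (29.0%) and 138 gained (15.7%). Chromosome 11 had 306 lost and 136 gained among 907 peaks. Chromosome 18 had 147 and 86 among 552, and chromosome 20 had 172 and 126 among 675. Of all 26642 peaks, 20.7% were lost and 21.3% gained, 42.0% in all, and the 692 calls of chromosome 8 and 392 of chromosome 15 made up 50.7% and 44.7% of their peaks. In 318 peaks of chromosome 8 (23.3%) and 160 of chromosome 15 (18.2%) every knockdown library lay below every control library of its batch, against 13.9% of all peaks. Every knockdown library lay above in 170 (12.4%) and 103 (11.7%), against 14.4%. These counts rest on the contrast by which the chromosomes were chosen.

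To separate single sites from the chromosome-wide shift, the median of each peak's 10 Mb window was subtracted from its log2 fold change, and the difference was set against the peak's standard error, with p-values adjusted over all peaks. On chromosome 8, 322 peaks were higher than their window (23.6%) and 327 lower (23.9%), and on chromosome 15, 186 were higher (21.2%) and 173 lower (19.7%). Over the whole set, 21.6% were higher and 19.2% lower. Centring on the window median places as many peaks above it as below, so the balance of both directions is largely set by this step. The chromosome 15 shares were near those of all peaks. Of the lost peaks, 126 on chromosome 8 and 81 on chromosome 15 did not pass this rule. A further 83 and 48 peaks with no call became higher than their window, and all gained peaks stayed higher. Every window median here was below 0, so subtracting it raised each peak, and these moves follow from that step. Over the whole set, 828 of 5519 lost and 446 of 5666 gained peaks did not pass. Of the uncalled peaks of the whole set, 547 became higher and 416 lower. Each of the 322, 327, 186 and 173 peaks had the same sign in both batches. Over the whole set this held for 5763 of 5767 higher and 5101 of 5107 lower peaks. The call itself used both batches, so this agreement is not a replication.

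Measured against the median of all peaks of the window, higher peaks were seldom gene-end peaks, on these chromosomes as over the whole set. Gene-end peaks made up 4.97% of the peaks higher than their window on chromosome 8 and 4.30% on chromosome 15, and 14.7% and 20.8% of those lower. Over the whole set they made up 7.09% of the higher and 19.8% of the lower peaks. Of all peaks of chromosomes 8 and 15 they made up 17.2% and 22.0%. Among peaks that stayed with their window they made up 23.8% and 28.8%, against 32.2% over the whole set. Because gene-end peaks have a lower median everywhere, the window was also computed class by class, an alternative chosen after seeing the data. It gave 295 higher (21.6%) and 322 lower peaks (23.6%) on chromosome 8 and 171 (19.5%) and 171 (19.5%) on chromosome 15. Over the whole set it gave 19.3% higher and 19.3% lower. On chromosome 8, 26 of the 295 higher and 20 of the 322 lower peaks were then gene-end peaks. On chromosome 15 these were 11 of 171 and 15 of 171, and over the whole set 651 of 5142 and 436 of 5150. With this alternative, gene-end peaks were thus no longer rarer among higher than among lower peaks on chromosome 8 and over the whole set. By the first rule, 114 of 322 higher and 146 of 327 lower peaks of chromosome 8 differed more than 2-fold from the window. On chromosome 15 these were 93 of 186 and 69 of 173, and over the whole set 2438 of 5767 and 2070 of 5107.

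Examples were taken as the 6 peaks farthest from their window in each direction, among those whose mean normalised count reached 30, with no overlap of the genotypes in either batch (94 higher and 150 lower peaks qualified on chromosome 8, and 38 and 75 on chromosome 15). Their fold changes are given with the standard error of the fit and no p, since this contrast chose them. In each of them the lowest and highest libraries of both genotypes did not overlap.

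On chromosome 8, the peak that fell farthest below its window lay within TOX, which encodes an HMG-box factor of lymphocyte development (chr8:59043595-59044397). Its normalised count was 51.6, 68.5 and 83.0 in control and 7.45, 12.8 and 15.8 in knockdown libraries (lowest, median, highest), a log2 fold change of -2.42 ± 0.21 (SE), with a window median of -0.38. Every knockdown library lay far below the lowest control library. The next was within FBXO16, which encodes an F-box protein (chr8:28442376-28443230), with 67.0, 78.5 and 91.0 in control and 14.02, 19.8 and 20.4 in knockdown libraries (-2.09 ± 0.18). Lower peaks within KCNQ3, which encodes a potassium channel subunit (-2.02 ± 0.19), and within TG, which encodes thyroglobulin (-1.95 ± 0.19), followed. A peak within INTS9, which encodes an Integrator subunit, fell by 1.93 ± 0.19 on the log2 scale. The last, within PBK, a mitotic kinase gene (chr8:27827077-27828156), had 104, 111 and 121 in control and 21.9, 29.8 and 40.4 in knockdown libraries (-1.90 ± 0.15).

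In the other direction, the peak farthest above its window lay within ZC3H3, which encodes a zinc finger protein of mRNA export (chr8:143458195-143459129). Its normalised count was 14.3, 20.3 and 36.4 in control and 68.8, 88.9 and 133 in knockdown libraries (2.13 ± 0.22, window median -0.19), and the rise was 2.82 in batch 1 and 1.60 in batch 2. A peak within SDC2, which encodes the heparan sulfate proteoglycan syndecan 2 (chr8:96540360-96541040), rose from 10.4, 14.8 and 17.6 to 40.8, 44.8 and 50.2 (1.60 ± 0.23). A peak in SLC25A37, the gene of the mitochondrial iron importer mitoferrin 1 (chr8:23567025-23568548), was the strongest of these examples. It held 72.6, 92.8 and 97.7 in control and 193, 221 and 278 in knockdown libraries (1.33 ± 0.12). The remaining examples lay between protein-coding genes, nearest to MTSS1 (1.58 ± 0.20, 118254 bp away), DNAJC5B (1.40 ± 0.14, 58614 bp) and HNF4G (1.24 ± 0.16, 13088 bp).

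On chromosome 15, the lowest peak lay 878611 bp from NR2F2, the nearest protein-coding gene, which encodes an orphan nuclear receptor (chr15:95446826-95447435). Its normalised count was 40.3, 55.0 and 74.8 in control and 4.57, 5.01 and 11.9 in knockdown libraries (-3.04 ± 0.27, window median -0.23). A peak within FAM81A, 1215 bp from its end (chr15:59399196-59400110), had 62.4, 91.2 and 118 in control and 4.75, 13.0 and 17.7 in knockdown libraries (-2.84 ± 0.20). These were the largest falls of the examples on either chromosome. A peak within AKAP13, which encodes a protein kinase A anchor (chr15:85475027-85475853), had 85.6, 96.7 and 109 in control and 13.2, 19.1 and 28.9 in knockdown libraries (-2.31 ± 0.17). Peaks within CCDC32 (-2.11 ± 0.21), LRRK1, which encodes a leucine-rich repeat kinase (-1.92 ± 0.23), and ACSBG1, which encodes an acyl-CoA synthetase (-1.57 ± 0.21), completed the lower examples.

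FAM81A also held a peak that moved the other way. That peak (chr15:59506584-59507369, 16186 bp from the gene's end) had 10.2, 13.7 and 24.2 in control and 28.3, 47.7 and 58.7 in knockdown libraries (1.52 ± 0.23). The highest peaks relative to their window lay within PARP16, which encodes an ADP-ribosyltransferase of the endoplasmic reticulum (chr15:65244710-65245779), and PAQR5, which encodes a membrane progestin receptor (chr15:69305246-69306150). The PARP16 peak had 4.61, 10.97 and 21.1 in control and 42.3, 45.9 and 62.5 in knockdown libraries (1.99 ± 0.27; 2.61 in batch 1 and 1.55 in batch 2). The PAQR5 peak had 9.48, 13.0 and 18.2 in control and 41.6, 51.1 and 65.7 in knockdown libraries (1.99 ± 0.23). The other higher examples were within PDE8A, which encodes a cyclic AMP phosphodiesterase (1.55 ± 0.23), 102094 bp from TLE3 (1.75 ± 0.23) and 100339 bp from SMAD6, an inhibitory SMAD gene (1.66 ± 0.21).

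**Figure D5:**
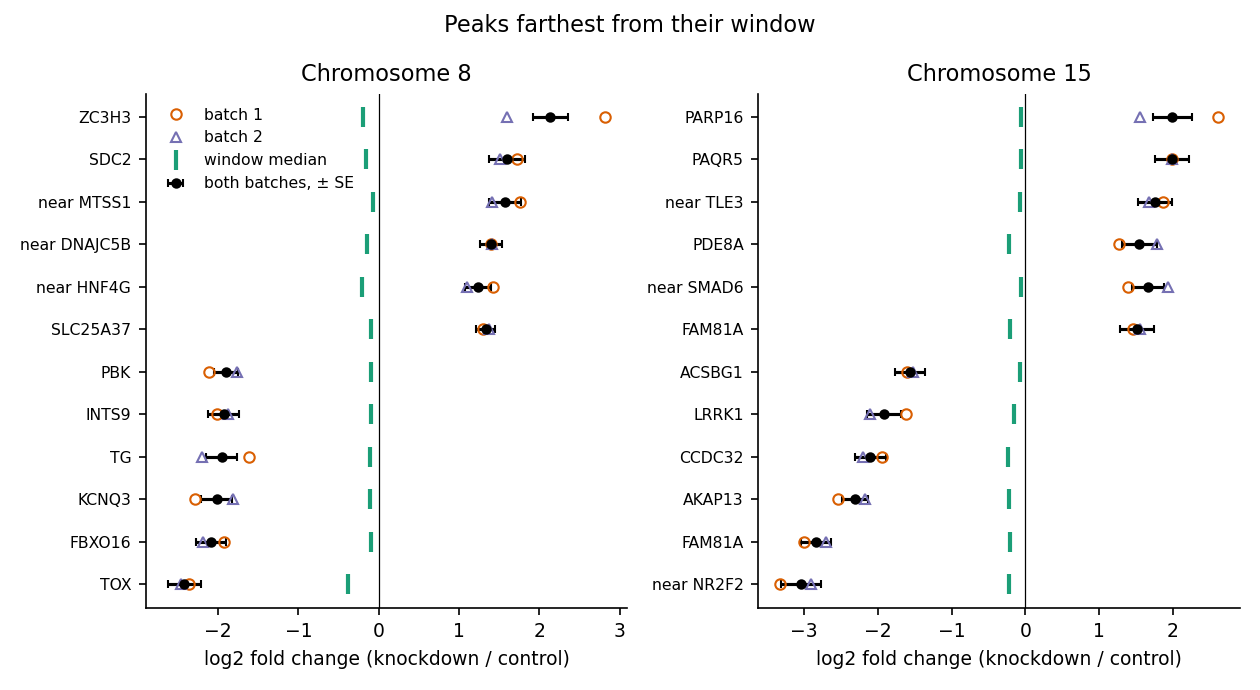
Log2 fold change (horizontal axis) of the 6 peaks farthest above and below their window on chromosome 8 (left) and chromosome 15 (right), ± SE of the fit over both batches (black), with each batch alone (open symbols) and the median of the peak's 10 Mb window (green tick). The window medians lie between -0.38 and -0.06, and both batches lie on the same side of them for each peak.

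The strongest peaks stayed with their windows. The highest mean count on chromosome 8 was at a peak within ARHGAP39, a GTPase-activating protein gene (chr8:144686065-144688683), with 685, 750 and 837 in control and 519, 615 and 838 in knockdown libraries. Its log2 fold change was -0.25 ± 0.10 and its window median -0.19, and the genotypes overlapped. On chromosome 15 the strongest peak lay 14930 bp from CRTC3, a CREB coactivator gene (chr15:90660275-90662130), with 285, 337 and 352 in control and 248, 273 and 312 in knockdown libraries. Its value of -0.23 ± 0.08 was itself the median of its window. At the threshold itself, a peak within FAM135B was just inside (0.54 above its window) and one within ASH2L just outside (0.58, with a larger standard error) on chromosome 8. On chromosome 15 these were a peak within IGF1R (0.54) and one within ANXA2 (0.43).

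Genes of myeloid interest were read out from 4 lists on each chromosome, taking peaks within 50 kb of either end of a gene. Peaks deeper inside long genes, such as the lower peaks within TOX and AKAP13 described above, are not in these counts. Among transcription and chromatin factors of chromosome 8, 12 of 14 genes had 38 peaks, of which 9 were lost (23.7%) and 4 gained (10.5%), with 4 lower and 6 higher than their window and a median log2 fold change of -0.09. The single peaks near MYC, the growth-promoting transcription factor gene, and CEBPD, a C/EBP gene of monocytic cells, had log2 fold changes of -0.23 and -0.31. Both were called lost, and neither passed the rule for a difference from its window. A peak within ZHX2, a zinc finger homeobox gene (chr8:122809249-122809924), had 19.6, 27.4 and 32.5 in control and 5.48, 6.60 and 16.8 in knockdown libraries (-1.72 ± 0.30). A peak 38539 bp from MYBL1, a MYB family gene, but only 3817 bp from VXN, changed by -1.14 ± 0.18. Beside the lower peak deep within TOX, a weak peak 3640 bp from its end rose from 3.72, 7.26 and 13.9 to 10.8, 14.2 and 25.6 (1.08 ± 0.36), with overlapping genotypes and with 1.75 in batch 1 and 0.55 in batch 2.

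Among kinase and signalling genes of chromosome 8, all 12 had peaks, 72 in all, of which 21 were lost (29.2%) and 12 gained (16.7%), with 19 lower and 15 higher than their window. A peak 2621 bp from DOK2, which encodes an adaptor that restrains tyrosine kinase signalling in myeloid cells (chr8:21905483-21906252), had 30.5, 45.9 and 62.4 in control and 5.59, 7.25 and 15.4 in knockdown libraries (-2.54 ± 0.27). In all, 5 of its 8 peaks were lost and none gained. A peak 21634 bp from STK3, a Hippo pathway kinase gene (chr8:98321686-98322341), had 27.3, 34.3 and 47.4 in control and 1.19, 4.21 and 9.32 in knockdown libraries (-2.88 ± 0.31), while 3 other STK3 peaks were gained. A peak within TRIB1, the pseudokinase gene that controls C/EBP-alpha stability (chr8:125435873-125436905), fell from 74.1, 84.9 and 93.7 to 26.3, 30.6 and 34.4 (-1.51 ± 0.16). Of the 6 peaks near TRIB1, 1 was lost and 1 was gained. Of the SRC family members, LYN had 3 lost and 0 gained among 6 peaks, and BLK had 1 peak, lost at -1.44.

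Immune receptor and effector genes of chromosome 8 had 34 peaks near 12 of 14 genes, of which 15 were lost (44.1%) and 8 gained (23.5%), with 9 lower and 9 higher than their window. The TRAIL receptor cluster (TNFRSF10A to TNFRSF10D) held most of the gains, and many of its peaks are shared between neighbouring genes within 50 kb. Its intergenic peak 5221 bp from TNFRSF10D (chr8:23128902-23130367) rose from 120, 140 and 159 to 175, 207 and 215 (0.56 ± 0.10). By contrast, 5 of 7 peaks near GSDMD, the pyroptosis pore gene, were lost and 0 gained. Both peaks shared by the neutrophil defensin genes DEFA1 and DEFA4 were lost, at -1.54 and -1.52; DEFA1 belongs to a family of near-identical copies, so its reads are uncertain. A peak within IDO2, 32045 bp from IDO1, the tryptophan-degrading enzyme gene, changed by -1.50 ± 0.17. Of the 3 peaks near IDO1, 2 were lost and 1 was gained.

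Lysosome, lipid and protease genes of chromosome 8 had 30 peaks near 11 of 12 genes, of which 14 were lost (46.7%) and 6 gained, with 11 lower and 6 higher than their window and a median of -0.35. Near the listed genes of vacuolar proton pump subunits, 3 of 3 peaks at ATP6V1B2 and 2 of 3 at ATP6V1C1 were lost, with 0 gained. The ATP6V1C1 peak 40879 bp from the gene (chr8:102979383-102980204) went from 109, 113 and 133 to 45.7, 60.5 and 64.3 (-1.02 ± 0.12). Near PLAT, tissue plasminogen activator, a peak 9197 bp away changed by -1.49 ± 0.16. Of the 3 peaks near PLAT, 2 were lost and 1 was gained. Near CA2, carbonic anhydrase 2, a peak 9692 bp away (chr8:85491185-85492313) rose from 42.8, 55.0 and 83.0 to 127, 138 and 149 (1.29 ± 0.14). Of the 3 peaks near CA2, 1 was gained and 1 was lost.

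On chromosome 15, transcription and chromatin factors had 68 peaks near all 14 genes, of which 15 were lost (22.1%) and 9 gained (13.2%), with 8 lower and 11 higher than their window. PML, the nuclear body gene fused in acute promyelocytic leukemia, had 4 gained and 0 lost among 10 peaks. One of these peaks, 37330 bp from PML but only 4332 bp from LOXL1, changed by 1.33 ± 0.24. A peak within TLE3, the Groucho corepressor that binds RUNX proteins (chr15:70092903-70093712), rose from 4.21, 9.84 and 14.1 to 26.1, 35.0 and 47.5 (1.88 ± 0.28). Of the 5 peaks near TLE3, 1 was gained and 1 was lost. SMAD3 had the gained promoter printed above (1.03 ± 0.14) among 11 peaks, of which 2 were gained and 3 lost.

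Kinase and signalling genes of chromosome 15 had 40 peaks near 10 of 12 genes, of which 14 were lost (35.0%) and 5 gained (12.5%), with 9 lower and 9 higher than their window. FES, a myeloid tyrosine kinase gene, and its neighbour FURIN, a proprotein convertase gene, share an intergenic peak (chr15:90852581-90853582). It went from 109, 144 and 150 in control to 42.9, 52.8 and 66.3 in knockdown libraries (-1.36 ± 0.13). A peak within PAK6, 34210 bp from PLCB2, a phospholipase C gene, changed by 1.67 ± 0.28. Of the 4 peaks near PLCB2, 1 was gained and 1 was lost. A peak within IGF1R, the insulin-like growth factor receptor gene, changed by 0.99 ± 0.20, with 0.59 in batch 1 and 1.33 in batch 2.

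Immune and cell death genes of chromosome 15 had 58 peaks near 13 of 14 genes, of which 18 were lost (31.0%) and 9 gained (15.5%), with 13 lower and 10 higher than their window. Near BCL2A1, an antiapoptotic BCL2 family gene, a peak 10364 bp away (chr15:79981560-79983404) went from 41.0, 49.7 and 76.3 to 15.8, 22.7 and 27.3 (-1.34 ± 0.19). SEMA7A, which encodes a membrane-anchored semaphorin, stood out in this list with 5 gained and 0 lost among 9 peaks. The IL16 promoter printed above changed by -1.03 ± 0.20. Its gene had 1 lost and 1 gained peak among 4.

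Metabolism, lysosome and cytoskeleton genes of chromosome 15 had 43 peaks near 11 of 12 genes, of which 13 were lost (30.2%) and 7 gained (16.3%), with 10 lower and 13 higher than their window. HEXA, the lysosomal beta-hexosaminidase subunit gene, had 3 of 4 peaks lost, and the one within it (chr15:72365726-72366497) went from 31.7, 40.3 and 45.5 to 5.27, 9.19 and 13.98 (-2.12 ± 0.26). PKM, which encodes pyruvate kinase, had 2 of 5 peaks gained and 0 lost. A peak within ABHD2, a lipase gene, changed by -1.91 ± 0.30. Of the 8 peaks near ABHD2, 3 were lost and 2 were gained. MYO1E, a myosin gene, shares the FAM81A peak described above. Set beside all peaks of their own chromosome (33.2% lost on chromosome 8 and 29.0% on chromosome 15), 3 of the 8 lists had a smaller share lost: both lists of transcription and chromatin factors and the kinase list of chromosome 8.

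Neighbouring peaks sometimes left their window together. Runs of at least 4 consecutive peaks beyond their window in the same direction, with gaps of at most 100 kb, were described after the values were seen. Over the whole set 40.8% of peaks were beyond their window. Runs on other chromosomes were not counted, so these runs are not shown to be particular to chromosomes 8 and 15. The run with the most peaks was one of 6 lower peaks on chromosome 8 (chr8:129581673-129679850). It lay outside protein-coding genes, and the nearest of these was GSDMC, a gasdermin gene. Its summed normalised count was 304 to 348 in control and 137 to 188 in knockdown libraries, and its median log2 fold change was -1.04 in batch 1 and -1.02 in batch 2. Higher runs of chromosome 8 lay in CSGALNACT1, a chondroitin sulfate synthesis gene (5 peaks, 88.7 to 148 in control and 191 to 248 in knockdown libraries), in COL14A1 and MRPL13 (5 peaks, 99.7 to 156 and 182 to 228) and in PTK2 and AGO2 (4 peaks, 95.6 to 130.1 and 156 to 177). A run of 4 higher peaks around PDP1 overlapped between genotypes (140 to 217 and 192 to 247). On chromosome 15, 4 higher peaks lay in and beside SEMA7A (44.2 to 68.0 and 107 to 128) and 4 lower peaks in SCAMP2 and MPI (137 to 188 and 70.1 to 103).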

How the data were processed

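RUNX1 ChIP-seq of THP-1 cells was analysed from the deposited table, which gives each library's raw read counts in each peak; the authors had not normalized them. The deposited table also gives each peak's width in bp, which the authors list as other information. Per the study's methods and the submitters' processing notes, the authors aligned reads with Bowtie2, left out duplicate reads and contigs other than the primary chromosomes, called peaks with MACS2 for each condition and batch, kept and merged those reproducible between batches, and counted reads with featureCounts; versions are not given in the sources used here. Peak calling thus used the compared libraries themselves. The notes name GRCh38 and the mouse build GRCm38. The coordinates were taken as GRCh38, since 24.4% of peaks lay within 1 kb of a protein-coding gene end of RefSeq GRCh38.p14, against 5.48% after moving all peaks by 1 Mb. Strand and exons are absent from the gene table used. Peaks were placed against its protein-coding genes only, so a peak described as outside genes or intergenic may lie in a non-coding gene. Depth was 630247 to 1719840 in-peak reads per library, and the median peak of chromosomes 8 and 15 held 21 to 48 reads per library (median SE of a log2 fold change 0.21).

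DESeq2 1.42.0 (R 4.3.3; batch and genotype, median-of-ratios size factors) was fitted on all 26642 peaks. Calls needed an adjusted p under 0.05 and a fold change over 1.1. The window test divided the difference from the 10 Mb window median by the SE (two-sided normal p, Benjamini-Hochberg over all peaks). Windows with fewer than 20 peaks took the median of the chromosome. Both steps were tried on simulated counts with few changed peaks and a uniform shift of chromosome 8. That shift was larger than the one in these data, so the trial does not cover the widespread changes described here. Library shares were compared by exact permutation within genotype. Named peaks were the 6 farthest from their window in each direction, the strongest and the threshold peaks of each chromosome, and up to 3 genes per list with the smallest adjusted p after centring. The chromosomes, lists and rules were chosen with earlier results of these data known. Alternatives were edgeR 4.0.16, other size factors, no batch term, a replicate block, a count filter, other windows, single batches and leaving out each library. No 2 libraries of a genotype were duplicates (chi-square per degree of freedom 1.29 to 2.24 over 30 pairs). Unassigned value columns: 0.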

Additional observations from a re-analysis of the deposited data

Results flagged for a closer look

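Within groups of 6 libraries, 1 library stood apart from the other 5 by Dixon's test in 9 of 106 groups examined, where chance alone gives about 1 in 20 groups (5.3 here). For the share of gene-end reads on chromosome 8, control replicate 1 had 4.85%, and the remaining control libraries ranged from 4.51% to 4.63%. All of them exceeded the knockdown libraries, at 4.004% to 4.21%. Among named peaks, the knockdown group had 1 high library within PARP16 (62.5 normalised counts in knockdown replicate 2, others 42.3 to 49.1), ZHX2 (16.8 in knockdown replicate 6, others 5.48 to 8.92) and near DOK2 (15.4 in knockdown replicate 3, others 5.59 to 7.65). The control group had 1 high library within PDE8A (26.5 in control replicate 3, others 10.4 to 15.6), near ATP6V1C1 (133 in control replicate 6, others 109 to 116), within SMAD3 (58.5 in control replicate 1, others 37.9 to 45.1) and within PAK6 near PLCB2 (24.3 in control replicate 4, others 4.61 to 10.4). It had 1 low library within CCDC32 (42.9 in control replicate 1, others 60.7 to 67.4). The genotypes did not overlap at any of these peaks.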

How the results depend on the processing

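Counts of gained and lost peaks and of peaks beyond their window stayed within 1.5 times their value under every alternative in which they were counted, except the replicate block. Neither was counted in single batches. Peaks beyond their window were also not counted with total counts or other chromosomes as the source of size factors. With replicate number as a block beside batch, 150 peaks were gained on chromosome 8, 166 lost on chromosome 15 and 115 lower than their window on chromosome 15. The numbers do not pair the libraries: the deviations of same-numbered libraries correlated at -0.062 to 0.014. The medians kept their sign on chromosomes 8 and 15 under every alternative. Against the small spread between libraries (SD 0.027 for chromosome 8, 0.010 for chromosome 15, 0.00145 for other peaks), these moved. For chromosome 15 the median was -0.17 in batch 2 alone, with edgeR and with TMM, -0.16 with total counts and with summed counts, -0.19 with size factors from other chromosomes and without batch, -0.20 with the block and -0.22 with a mean count of at least 20, where chromosome 8 had -0.19. It minus the other peaks was -0.18 in batch 1, with the block and with that filter, and -0.15 with summed counts. The other peaks gave -0.00409 in batch 1, -0.00155 in batch 2, -0.00340 with edgeR, -0.00375 with TMM, 0.00478 with total counts, -0.0274 with size factors from other chromosomes, -0.0168 without batch, -0.0394 with the filter and -0.00721 with summed counts. Gene-end peaks alone gave -0.36, -0.37 and -0.15 for chromosome 8, chromosome 15 and the others, with differences of -0.20 and -0.21, and the peaks farther away gave -0.069, -0.067 and 0.082, with a chromosome 15 difference of -0.15. Apart from these subsets and filters, which change the peaks or libraries used, the cause was not tested.

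Leaving out each library in turn gave 962 to 1061 calls on both chromosomes and 899 to 988 peaks beyond their window. The medians ran from -0.17 to -0.14 for chromosome 8, -0.20 to -0.16 for chromosome 15 and -0.020 to -0.0016 for other peaks, and the chromosome 15 difference from -0.19 to -0.16. The difference between batches in the chromosome 8 share ran from 0.0668 to 0.0969 percentage points; without knockdown replicate 5, its adjusted p from the exact permutation test was 0.03. Of 799 values of named peaks under the alternatives, 4 lost their call: MYBL1, IGF1R and ABHD2 in batch 1 alone and the weak TOX peak in batch 2 alone.

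Copy number was not measured, the IgG libraries were not analysed here, and control and knockdown are separate lines, so a line's chromosome content and the knockdown cannot be told apart. A peak within 10 Mb of others that share its shift is judged against them, so a change spanning a whole window is not counted as a change of its peaks. With a median SE of 0.21 on the log2 scale, a shift of the size of the chromosome medians was not detectable at most single peaks.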
